A study of Mus musculus with 2 samples.

Results

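Cells of the mouse retinal pigment epithelium (RPE) with high Rpe65 and with 4 marks of stress, damage or other cells below set limits, called main RPE cells here, were followed after subretinal doxorubicin (Dox). The limits bound these marks from above and do not set them to 0. The cells were chosen by counts of single genes, with no clustering. Each cell had at least 10 unique molecular identifiers of Rpe65 (UMIs, each tagging 1 captured RNA) and at least 1000 counts of Rpe65 per 1000000 UMIs of the cell (CPM). It also had under 1000 CPM of Serpina3n, under 50000 CPM of Malat1, under 500 CPM of Dcn and a share of mitochondrial UMIs under 0.05. In all, 1637 of the 36030 deposited cells met this rule, 823 in control and 814 in Dox. They made up 54.9% (95% interval 52.3 to 57.4) of the 1500 Rpe65 cells in control and 51.3% (48.8 to 53.7) of the 1588 in Dox. Among the Rpe65 cells left out, Serpina3n was past its limit in 13 control and 182 Dox cells, Malat1 in 153 and 208, the mitochondrial share in 308 and 326, and Dcn in 373 and 275, with some cells past more than one limit.

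Both groups were C57BL/6J mice of 3 months. The control mice received 1 µl of PBS under the retina and the Dox mice 1 µl of Dox at 100 ng/µl, and the tissue was taken 7 days later. RPE, choroid and sclera were dissociated together with papain, dead cells were removed, and 1 library was made per group from 5 mice (10 eyes) together, with a kit that tags the 5′ end of each RNA. Mice could not be told apart, neither condition had a replicate, and treatment, injection and library cannot be told apart. No test between the conditions was therefore made, and a gene is called higher or lower in Dox when its CPM differed by 1.5-fold or more. All intervals are exact 95% intervals. Those of CPM and of ratios cover counting error only. Those of shares of cells treat the cells as independent draws and cover no spread between mice.

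The RPE is a single pigmented layer behind the photoreceptors. It turns all-trans-retinol back into 11-cis-retinal (the visual cycle), engulfs shed outer segments, moves ions, lactate and nutrients between retina and choroid, and forms the outer blood-retina barrier. Dox is a topoisomerase poison that breaks DNA, and broken DNA can activate p53 and, in many cells, interferon-responsive genes.

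The RPE identity of the cells was checked on 6 markers. Rpe65, the isomerase of the visual cycle, stood at 5453 CPM in control cells and 5877 CPM in Dox cells, against 239.8 and 342.8 CPM in cells with under 10 Rpe65 UMIs. Ttr, the carrier of retinol-binding protein, was at 78850 and 80152 CPM against 2821 and 4813 CPM. Rdh5, a retinol dehydrogenase, was at 6674 and 7231 CPM, and Rgr, a retinal-binding opsin, at 13542 and 13975 CPM. The metallothionein Mt3 had 4749 and 4652 CPM and Rd3l had 656.8 and 643.9 CPM. All 6 were 22.7 to 31.2 times as high as in the cells of low Rpe65 in control and 16.7 to 21.7 times as high in Dox. The levels in those cells were close to the levels in lymphocytes of the same library (377 control and 223 Dox cells with at least 5 UMIs of Cd3d, Cd3e, Cd3g and Nkg7), which should lack all 6. These low levels serve below as the background against which shares of cells are read. Whether they come from free RNA was not tested. The cells of low Rpe65 may also include RPE cells, since a limit of 3 Rpe65 UMIs gave 1036 control and 1076 Dox cells. Since Rpe65 was used for the choice and the other 5 follow it, these values describe the cells and test nothing.

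**Figure D1:**
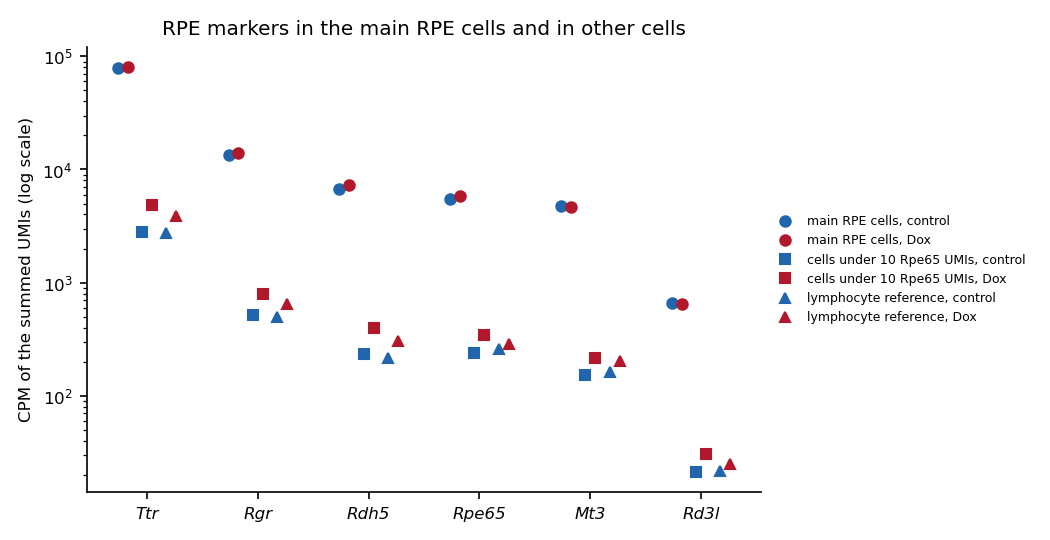
CPM of 6 RPE markers (log axis) in the main RPE cells (circles), in cells with under 10 Rpe65 UMIs (squares) and in lymphocytes of the same library (triangles), control in blue and Dox in red. In both libraries the circles stand over 10-fold above the squares and triangles, and control and Dox circles nearly coincide.

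Sampling was deep for single cells. The median main RPE cell held 20315 UMIs and 4122 genes in control (range 1011 to 51751 UMIs) and 22851 UMIs and 4406 genes in Dox (1210 to 56660 UMIs). The mitochondrial share had a median of 2.29% and 2.22%. The sums over cells came to 17241520 UMIs in control and 19176076 in Dox. No barcode was shared between the main RPE cells of the libraries, although 441 barcodes occurred in both deposited libraries. Doublets were limited by the upper limit of 6000 genes, which kept out 24 control and 75 Dox cells that were otherwise high in Rpe65. The limit on Dcn, a fibroblast marker, may have left out further doublets, which was not tested.

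The limits cut through continuous values. The highest Serpina3n among the main RPE cells was 997.4 CPM in control and 929.1 in Dox, and the lowest among the Rpe65 cells outside the limit 1061 and 1008. For Malat1 the values inside and outside were 47518 and 50188 CPM in control and 45576 and 50032 in Dox. For Dcn they were 497.1 and 502.7 CPM in control and 483.6 and 501.6 in Dox, and for the mitochondrial share 4.96% and 5.00% in control and 4.99% and 5.00% in Dox. The lowest Rpe65 among the main RPE cells was 1025 CPM in control and 1027 in Dox, and the highest among cells of enough UMIs below the limit was 991.7 and 968.8 CPM.

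A few genes made up much of the RNA. Ptgds, which makes prostaglandin D2 and carries retinoids, was first with 81438 CPM in control and 82635 in Dox, followed by Ttr and by the protease inhibitor Cst3 with 42679 and 43337. Next came Trf (transferrin, an iron carrier) and the metallothionein Mt1 with 16869 and 18304 CPM. A UMI marks the 5′ end of an RNA, so that these levels need no correction for length. The visual cycle list, 13 genes of which 12 reached a mean of 20 CPM, took 11.8% of all UMIs in control and 12.1% in Dox.

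Most genes had nearly the same level in the Dox and control cells. Of 4853 genes with a mean of at least 20 CPM, which held 94.3% of the UMIs in control and 94.5% in Dox, 14 were higher in Dox by 1.5-fold or more (0.288%) and 34 were lower (0.701%). The median log2 ratio over all 4853 genes was 0.00, and 90% of them lay between -0.17 and 0.18. All 14 and all 34 had counting intervals that did not reach 0. Among the 14, 9 belonged to the interferon list and 2 to the p53 list, and the limit gene Serpina3n was among the rest. Among the 34, 13 belonged to lists of markers of other cell types, with the limit gene Dcn among them, and 7 to the immediate early list. Of 21 genes that the study itself named from these libraries, 17 reached 20 CPM, 2 of them were higher and 5 lower, and since they were picked from these samples their count is no independent evidence.

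**Figure D2:**
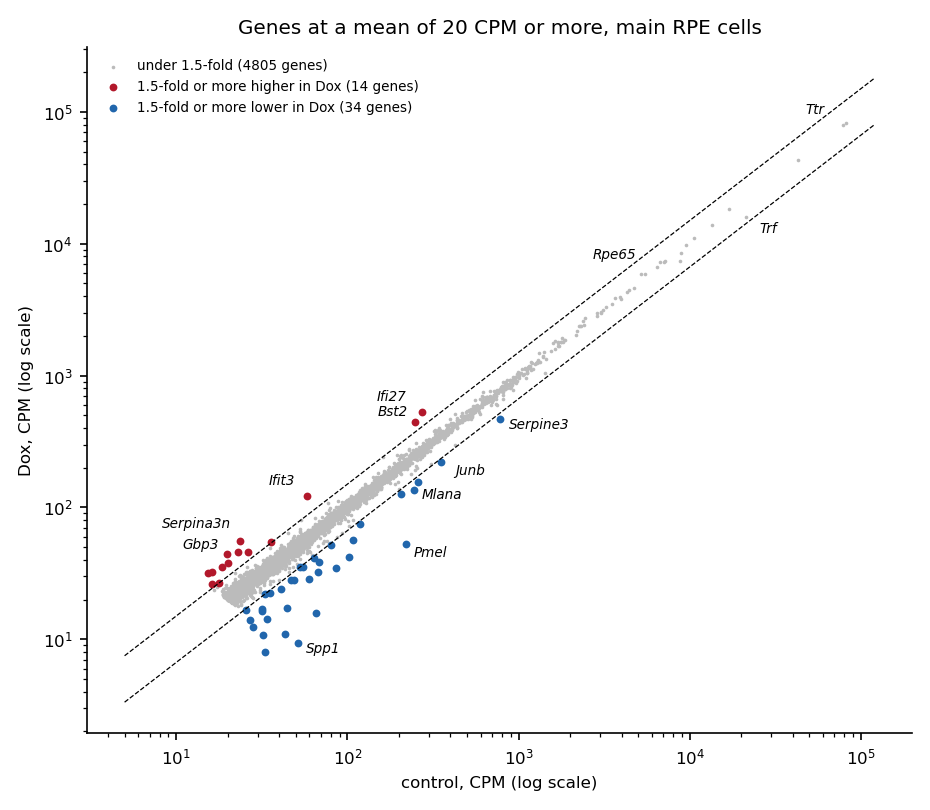
CPM in Dox (y axis) against CPM in control (x axis) for the 4853 genes with a mean of at least 20 CPM in the main RPE cells, both axes log; dashed lines mark 1.5-fold. The 14 genes higher in Dox (red) include Ifi27, Bst2, Ifit3 and Gbp3, the 34 lower (blue) include Pmel, Spp1 and Serpine3, and abundant RPE genes such as Ttr and Rpe65 lie near the diagonal.

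In the visual cycle none of 12 genes was called, and the median log2 ratio was 0.03. Lrat, which makes the retinyl esters that Rpe65 uses, had 1338 CPM in control and 1260 in Dox, the lowest ratio of the list at -0.09. Rdh5 had the highest at 0.12, and Rlbp1, which carries 11-cis-retinal, was at 3017 and 3052 CPM. Of 18 genes of ion and nutrient transport 16 reached 20 CPM and none was called (median 0.05), from Slc16a8 at 0.00 to the folate receptor Folr1 at 0.17. Slc16a8, the lactate carrier, was at 1537 and 1532 CPM, its chaperone Bsg at 7114 and 7308, the potassium channel Kcnj13 at 895.5 and 923.5, and the glucose carrier Slc2a1 at 835.2 and 901.2. The chloride channel gene Best1, often used to mark RPE, was near 0 in both libraries (0.35 and 0.68 CPM), and the claudin Cldn19 had no UMI, where 3 UMIs would be 0.174 CPM in control and 0.156 in Dox.

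None of 20 lysosome genes was called (median -0.02), with the peptidase Tpp1 highest at 0.20, and the cathepsin Ctsd had 2378 CPM in control and 2598 in Dox. None of 22 antioxidant genes was called (median 0.01), from Hmox1, which degrades haem, at -0.32 to Gclc, which starts glutathione synthesis, at 0.30, and Gpx4, which reduces lipid peroxides, was at 6468 and 6657 CPM. Of 79 genes of oxidative phosphorylation, Cox7a1 alone was called (17.7 CPM in control, 26.8 in Dox, log2 0.60, 0.39 to 0.81), and the list's median was 0.01. That ratio lay just past 1.5-fold and fell short of it under several alternatives, down to 0.48 with Serpina3n under 300 CPM. The 13 mitochondrially encoded genes had a median of 0.01 and the 76 ribosomal protein genes of -0.05, with none called. Of 12 heat shock genes and 7 of the integrated stress response none was called, with medians of -0.02 and 0.01.

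Of 11 genes for binding and engulfing outer segments 8 reached 20 CPM and none was called (median 0.06). Gas6, the bridging ligand of the receptor Mertk, had 77.1 CPM in control and 108.8 in Dox (log2 0.50, 0.40 to 0.60), the highest ratio of the list. Mertk itself had 46.4 and 48.9 CPM, and the related receptor Tyro3 23.9 and 30.3 (log2 0.34, 0.16 to 0.53). Mfge8, the ligand of the integrin on the apical side, had 23.9 and 21.0 CPM, with an interval that reached 0 (-0.39 to 0.01).

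Among the other lists of RPE identity, 3 genes were called, all lower in Dox. None of 5 transcription factors of the RPE was called, with Otx2, which drives RPE fate, at 396.3 CPM in control and 464.4 in Dox (log2 0.23), Sox9 at 302.4 and 312.6 and Mitf, the master factor of pigment cells, at 95.5 and 85.2 (-0.17). None of 3 metallothioneins was called, with Mt2 at 1319 and 1481 CPM, although reads may be shared between Mt1 and Mt2. Of 7 genes of epithelial junctions and keratins none was called, from Cldn10 at -0.25 to the scaffold Slc9a3r1 at 0.27. Of 12 secreted and matrix genes 1 was lower, Dkk3, a modulator of Wnt signalling, with 41.2 CPM in control and 24.2 in Dox (-0.77), while Timp3, an inhibitor of matrix proteases, had 3649 and 3864. Of 5 genes of lipid transport none was called, and Apoe, the apolipoprotein, had 5170 and 5875 CPM. Of 9 melanosome genes 2 were lower, Pmel and Mlana, which are described with the melanocyte markers.

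The interferon list held the largest block of genes that were higher in Dox. Of 30 genes in it, 13 reached 20 CPM, 9 of these were called higher and none lower, and their median log2 ratio was 0.91, beside 0.00 over all genes tested. The summed level of the 30 genes was 1029 CPM in control and 1785 in Dox. Ifi27, a small mitochondrial protein gene (chromosome 12, 103434211 to 103440239, in GENCODE vM21 on GRCm38), was the most abundant, with 271.4 CPM in control and 531.8 in Dox (log2 0.97, 0.92 to 1.02). Bst2 (chromosome 8, 71534255 to 71537456), the tetherin that holds budding virions at the membrane, had 249.6 and 441.1 CPM (0.82, 0.77 to 0.87). These 2 genes gave most of the summed difference.

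Less abundant members of the list showed ratios of the same size. Ifit3 (chromosome 19, 34583531 to 34588731), which binds viral RNA complexes, had 57.9 CPM in control and 123.0 in Dox (log2 1.09, 0.98 to 1.19), and its near-identical neighbour Ifit3b 22.9 and 45.5, so that reads between these copies may have been split or lost. Gbp3 (chromosome 3, 142560026 to 142573209), a guanylate-binding GTPase, had 19.8 and 44.0 CPM (1.15, 0.97 to 1.34), the highest ratio of the list. The chaperone Rtp4 had 15.4 and 31.7 CPM, and the apoptosis-related gene Xaf1 had a log2 ratio of 0.93 (0.74 to 1.11). Irf9, a factor that carries the type I interferon signal to the nucleus, was among those called, at 16.1 and 26.1 CPM (0.70, 0.48 to 0.91).

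Not every listed gene differed in this way. Lgals3bp, a secreted glycoprotein, was just under the limit with 161.4 CPM in control and 240.6 in Dox (log2 0.58), and Gbp7 and Ifi35 had ratios of 0.42 and 0.39. Irf1, a transcription factor that also answers other signals, was at 31.0 and 22.9 CPM (-0.44, -0.62 to -0.25). Of the 17 genes under 20 CPM, 7 had counting intervals above 0 and 1 below, among them Usp18, which dampens the interferon receptor, with 7.37 CPM in control and 15.1 in Dox (1.03, 0.73 to 1.35), and Irf7, which amplifies the response, with 6.44 CPM in control (0.90, 0.57 to 1.24). Genes of MHC class I, which interferon often raises too, were not called (0 of 7, median 0.05), and B2m, the invariant light chain, had 308.1 and 324.4 CPM. Within that list, H2-D1 was at -0.45 and the peptide-loading factor Tapbp at 0.45, and copies of the H2 genes may share reads.

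Interferon-responsive genes share a promoter element, the ISRE, with repeats of GAAA. The core GAAANNGAA (TTCNNTTTC on the other strand) was therefore searched on both strands from 250 bases before to 50 after the start of transcription, in RefSeq promoters of the GRCm38.p6 assembly. Of the 9 interferon genes called higher, 6 were in the promoter table, and 4 of these (Ifit3, Ifit3b, Gbp3 and Bst2) held a match, as did 15 of the 24 in the table out of all 30 listed interferon genes, beside 8.56% of all 32851 promoters and 8.80% of 3896 tested genes. The table holds a second promoter of Gbp3, which had no match. Matches may overlap. The promoters of Ifit3, Gbp3 and Bst2, the 3 called genes of highest ratio or level with a match, are shown for the 160 bases before the start, 5′ to 3′ on the strand of the gene, with matched bases in capitals. A match is a description of the letters and not of a bound site.
Ifit3 (chr19:34583369-34583528, plus strand): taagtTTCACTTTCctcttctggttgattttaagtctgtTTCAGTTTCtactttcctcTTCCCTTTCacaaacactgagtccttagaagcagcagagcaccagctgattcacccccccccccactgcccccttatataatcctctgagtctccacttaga
Gbp3 (chr3:142559884-142560043, plus strand): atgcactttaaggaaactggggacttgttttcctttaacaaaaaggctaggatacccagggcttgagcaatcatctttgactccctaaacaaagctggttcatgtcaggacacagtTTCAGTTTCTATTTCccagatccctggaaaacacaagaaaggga
Bst2 (chr8:71537473-71537632, minus strand): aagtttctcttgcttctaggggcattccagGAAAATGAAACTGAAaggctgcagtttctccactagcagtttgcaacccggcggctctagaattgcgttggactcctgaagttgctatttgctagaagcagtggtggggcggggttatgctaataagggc

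The interferon difference was spread over the cells and not carried by a few. The 9 called genes together had a median of 576.8 CPM per cell in control (10th to 90th percentile 216.3 to 1233) and 1038 in Dox (412.6 to 2372). Of 814 Dox cells, 648 lay above the control median (79.6%) and 331 above the control 90th percentile (40.7%). Since the 9 genes were chosen as higher in Dox, high shares follow in part from the choice, and they describe the spread only. The tenth of the cells with the most UMIs of these genes held 28.7% of them in control and 31.7% in Dox.

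Cells outside the RPE did not show a difference of this size. In the lymphocytes the list summed to 2246 CPM in control and 2056 in Dox, and in all cells with under 10 Rpe65 UMIs to 3330 and 3526. With every cell thinned to 2000 UMIs, Bst2 was seen in 33.8% of control and 51.1% of Dox main RPE cells (820 and 806 cells deep enough), and in 23.1% and 18.9% of lymphocytes (368 and 217 cells). Unthinned, the main RPE cells had it in 89.2% and 94.6%, at median depths of 20315 and 22851 UMIs against 4202 and 4284 in the lymphocytes. Among the Rpe65 cells left out, the list summed to 909.7 CPM in control and 3478 in Dox where Serpina3n was past its limit, although that control group had only 13 cells. It was 1623 and 2427 CPM where Dcn was past its limit, 1067 and 1593 where the mitochondrial share was, and 1361 and 1526 (log2 0.16, 0.05 to 0.28) where Malat1 was.

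**Figure D3:**
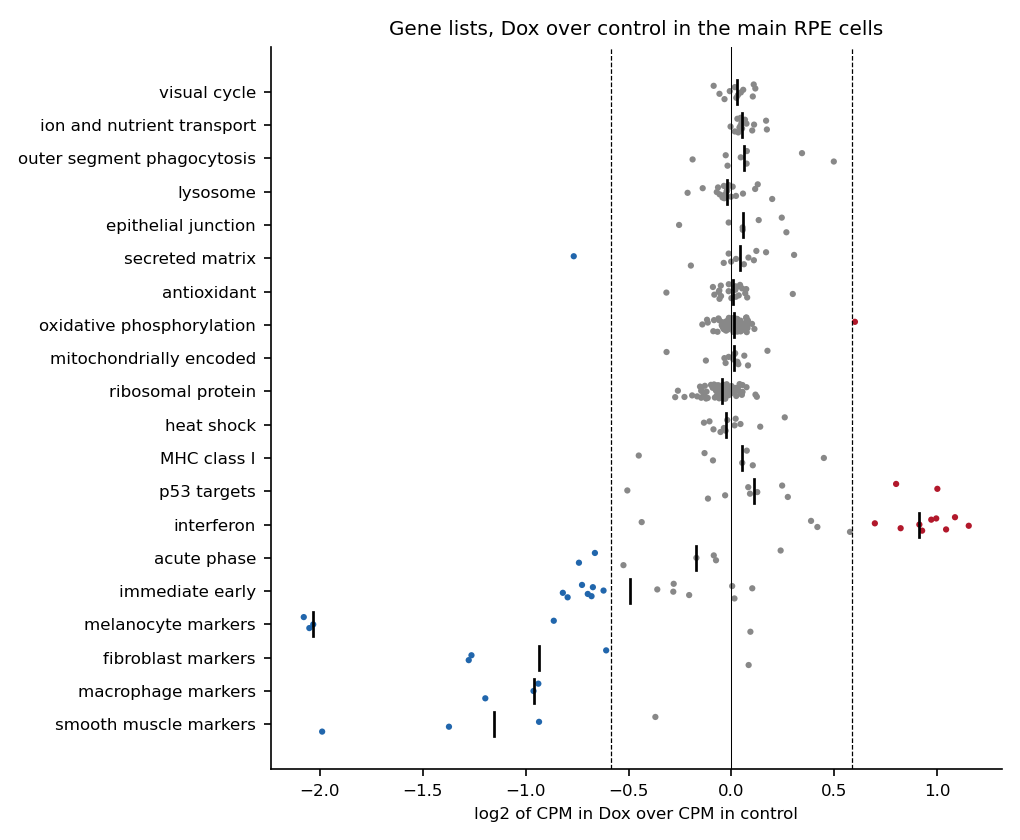
Log2 ratio of CPM in Dox over control (x axis) for the genes of 20 lists with a mean of at least 20 CPM, 1 point per gene, with the list median as a black bar; dashed lines mark 1.5-fold, red points are higher and blue points lower by that fold. The interferon points sit mostly to the right of the line with a median of 0.91, and immediate early and other-cell marker genes mostly to the left. The lists of RPE function that are drawn have medians around 0. The melanosome list, in which Pmel and Mlana were lower, is not drawn as a list of its own.

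Genes of the p53 response were higher in fewer numbers. Of 24 listed genes 10 reached 20 CPM, 2 of them were higher and none lower, and the list's median was 0.11. Cdkn1a (chromosome 17, 29090976 to 29100727), the inhibitor that halts the cell cycle, had 26.2 CPM in control and 45.6 in Dox (log2 0.80, 0.63 to 0.97). Phlda3, a repressor of Akt, had 16.3 and 32.6 CPM (interval of the log2 ratio 0.79 to 1.21). The abundant targets Bax (66.3 and 70.1 CPM) and Perp (252.5 and 268.7) were close to equal, and Btg2 had 102.0 and 71.8 CPM (-0.51).

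Serpina3n, an acute phase protease inhibitor that was used as a limit, was itself 23.7 CPM in control and 55.5 in Dox below that limit (log2 1.23). It was called higher, but since the rule capped it, nothing is read from that ratio. Lymphocytes had 27.9 and 88.4 CPM of it (1.66) and all cells with under 10 Rpe65 UMIs 53.7 and 189.2 (1.82). With cells thinned to 2000 UMIs it was seen in 3.29% of control and 8.93% of Dox main RPE cells and in 4.35% and 16.1% of lymphocytes (unthinned, 13.2% and 43.9% of the main RPE cells), so that single UMIs of it are read as background. The main RPE cells were split by it as a description only. Since Dox cells had more Serpina3n, such a split takes more cells from Dox than from control, and those with much Cdkn1a among them, so that the values support nothing about either condition. Cells with no Serpina3n UMI numbered 714 in control and 457 in Dox. In them Cdkn1a was 24.0 CPM in control and 19.5 in Dox (-0.30, -0.56 to -0.04), while the interferon list was 1013 CPM in control (997.0 to 1030) and 1700 in Dox (1675 to 1725). The 38 Dox cells at 300 to under 1000 CPM of Serpina3n, 4.67% of the Dox cells, held 379 of 875 Cdkn1a UMIs (43.3%), at 394.1 CPM (355.4 to 435.9), and Phlda3 there was 208.0 CPM. The 12 control cells in that range had 58.8 CPM of Cdkn1a (35.9 to 90.8) from 20 UMIs. Zero Serpina3n UMIs is reached more easily in a shallow cell, and the cells with none had median depths of 19678 UMIs (control) and 22278 UMIs (Dox).

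With the 12 control and 38 Dox cells at 300 CPM or more of Serpina3n left out, the log2 ratio of Cdkn1a was 0.09. Phlda3 was still past 1.5-fold at 0.63 but had a mean under 20 CPM. In the cells with no Serpina3n UMI all 9 interferon genes remained called. These splits use a gene of the rule, and the 9 genes were chosen as higher in the same cells. The values are therefore a description and support nothing about either condition.

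**Figure D4:**
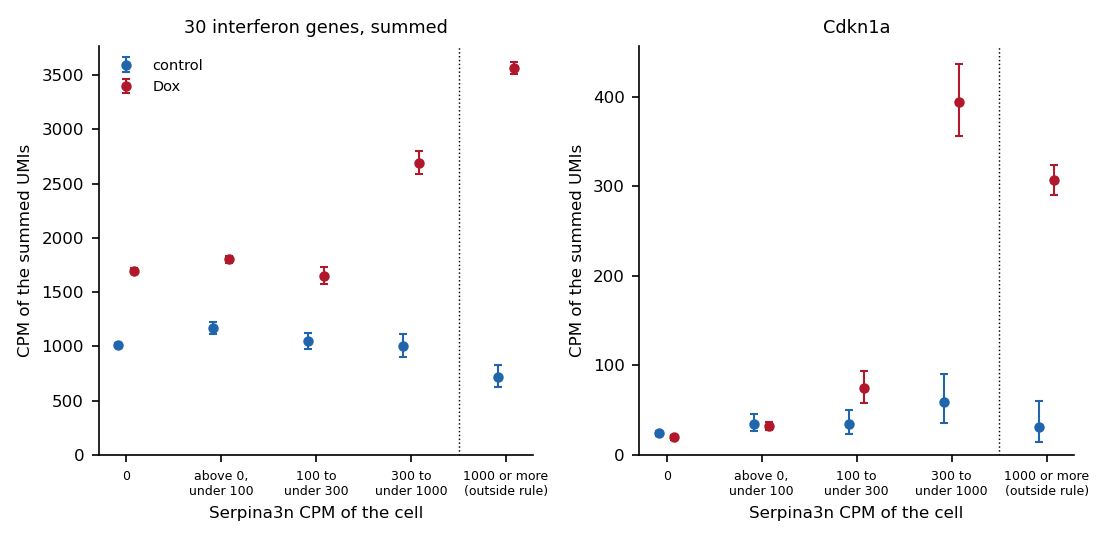
Summed CPM (y axis, from 0) of the 30 interferon genes (left) and of Cdkn1a (right), control in blue and Dox in red, with exact 95% Poisson intervals. The cells are Rpe65 cells within the Malat1, Dcn and mitochondrial limits, grouped by their Serpina3n CPM (x axis). The last group lies outside the Serpina3n limit alone, with 9 control and 138 Dox cells. Interferon genes are higher in Dox in each group, from 1013 against 1700 CPM at no Serpina3n, and Cdkn1a is not higher in Dox below 100 CPM of Serpina3n and reaches 394.1 CPM at 300 to under 1000.

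The 34 genes lower in Dox were mostly genes of low level in RPE and of high level elsewhere. In control, 33 of the 34 had a higher CPM in the lymphocytes than in the main RPE cells, beside 41.4% of all tested genes, and Serpine3 was the exception. In the lymphocytes 16 of the 34 were lower in Dox by 1.5-fold or more too. Others were not, such as Lum (-0.10), Mgp (-0.33) and Myl9 (-0.32). Over 4848 tested genes the median log2 ratio in the lymphocytes was -0.06, and 2040 ratios were above 0. The share of all genes lower there by 1.5-fold is not given here, so that the 16 are a description only. Of the 34 genes, Spp1 (osteopontin) differed most in the main RPE cells, with 51.7 CPM in control and 9.33 in Dox (log2 -2.47). It is in none of the lists of other cells. Melanocyte markers gave the next 3. Pmel, the fibril protein of melanosomes, had 221.4 CPM in control and 52.5 in Dox (log2 -2.08, -2.18 to -1.98), and S100b had 65.7 and 15.9 (-2.05). Ednrb, the endothelin receptor of melanocytes, had 32.8 and 8.03 CPM, and Mlana 246.6 and 135.6 (-0.86). Of 11 melanocyte markers 5 reached 20 CPM and 4 of these were lower, and none of the 11 was at 0. Sox10, the melanocyte transcription factor, had 67.3 and 71.7 CPM.

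The same markers were lower in cells that are not pigmented. The melanocyte list, with Mlana its most abundant gene, summed to 658.1 CPM in control and 295.2 in Dox in the main RPE cells, and to 1978 and 345.3 CPM in the lymphocytes. Pmel had 818.2 and 121.8 CPM in the lymphocytes, and Spp1 had 241.7 and 38.4 CPM there. Selenop, a selenium carrier, had 86.4 and 34.7 CPM in the main RPE cells and 549.6 and 231.9 in the lymphocytes. The part of free RNA in these differences was not tested. Of the 9 melanosome genes, which RPE and melanocytes share, Pmel and Mlana alone were called. Tyr, the enzyme that starts melanin synthesis, was at 196.2 and 189.2 CPM, Dct, a later enzyme, at 1429 and 1038 (-0.46), and Tyrp1, another one, at 201.0 and 137.4 (-0.55).

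Markers of vessel wall, connective tissue and antigen-presenting cells went the same way. Of 8 smooth muscle markers 4 reached 20 CPM and 3 were lower, among them Rgs5 (43.4 CPM in control, log2 -1.99) and Myl9 (44.5 and 17.2), and the most abundant, Acta2, had 255.5 and 197.7 (-0.37). Of 12 fibroblast markers 4 reached 20 CPM and 3 were lower, with Mgp at 101.8 and 42.0 CPM and Lum at 34.2 and 14.2, while the most abundant of them over both libraries, Ogn, was at 91.1 and 96.5. The other lower one, Dcn (log2 -0.61), was capped by the rule, so that nothing is read from its ratio. Of 12 macrophage markers 3 reached 20 CPM and all 3 were lower, Cd74 (107.7 and 56.2 CPM), H2-Aa and H2-Eb1. Summed over each list, the levels were 413.2 and 258.4 CPM for smooth muscle, 354.7 and 236.8 for fibroblasts and 258.2 and 120.3 for macrophages, with no listed marker at 0 in both libraries. No gene of the lymphocyte, endothelial or erythroid lists reached 20 CPM, and these lists summed to 9.51, 48.8 and 0.986 CPM in control and 3.34, 27.5 and 0.939 in Dox. Of 13 rod photoreceptor genes Rom1 alone reached 20 CPM (391.7 and 395.1), and it was not called. Of 5 Schwann cell markers 2 reached 20 CPM and neither was called, and Pmp22 had 205.0 and 179.1 CPM. Without the cells in the top 5% of any such list, 18 genes were lower in place of 34, and 15 of them were among the 34. The 19 no longer called included Spp1, Ednrb, Rgs5, Myl9, Lum, Cd74, H2-Aa and H2-Eb1, but not Pmel, S100b or Mlana. A call can be lost through a mean under 20 CPM as well as through a smaller ratio.

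Immediate early genes answer within minutes to stimulation or dissociation of tissue. Of 15 such genes 14 reached 20 CPM, 7 were lower and none higher, 3 had ratios above 0, and the median was -0.49. Junb had 353.6 CPM in control and 221.7 in Dox (-0.67, -0.73 to -0.62), Zfp36, which destabilises cytokine mRNAs, 206.8 and 127.5, and Atf3 68.3 and 38.7 (-0.82). Fos, the most abundant, had 743.4 and 612.0 CPM (-0.28), and Jun was nearly equal at 353.1 and 353.9. Cebpd (259.1 and 155.0 CPM) and Socs3 (35.3 and 22.3), which act downstream of cytokines, were lower with them. These 2 were also the lower genes of the acute phase list (7 tested, median -0.17), in which the protease inhibitor A2m had 204.8 and 241.7 CPM.

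The 7 called immediate early genes were unevenly spread over the cells of both libraries. They had a median of 333.9 CPM per cell in control and 265.7 in Dox, a 90th percentile of 2709 and 1039, and a 99th of 11731 and 11717. The tenth of the cells with the most held 55.8% of these UMIs in control and 58.1% in Dox. In the lymphocytes Junb stood far above the RPE level and was nearly the same in both libraries (6140 and 6126 CPM). Atf3 was lower in Dox there too, with 690.1 and 442.1 CPM (log2 -0.64, -0.79 to -0.50). Zfp36 (-0.22) and Ier2 (-0.16) had intervals below 0, and the rest of the 7 had intervals that reached 0. The whole list summed to 2639 and 2079 CPM in the main RPE cells (log2 -0.34) and differed in both directions among the Rpe65 cells left out. It was 8035 and 5933 CPM past the mitochondrial limit (-0.44), but 15337 and 18654 past the Dcn limit (0.28), 3347 and 3770 past the Serpina3n limit (0.17) and 14059 and 14705 past the Malat1 limit (0.06). Under a limit of 200 CPM on Dcn, in place of 500, the calls in this list fell from 7 to 2. With 3 Rpe65 UMIs as the limit, in place of 10, they also fell to 2.

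Among the RPE genes themselves, the cells were alike in their main markers and unlike in a few others. Spread was measured after thinning each cell to 5000 UMIs (787 control and 781 Dox cells), as the coefficient of variation in excess of counting. It was 0.24 and 0.24 for Rdh5, 0.27 and 0.26 for Ttr and 0.36 and 0.29 for Rpe65. For Trf the cells ranged more widely. Its 10th, 50th and 90th percentiles were 6957, 15032 and 37758 CPM in control and 6114, 13233 and 23646 in Dox, and its summed level was 21354 and 16060 CPM (log2 -0.41). Sult1c1, a sulfotransferase, was at 0 in more than 50% of the cells and reached a 95th percentile of 1668 CPM in control and 1483 in Dox.

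Serpine3, a little-studied protease inhibitor of the serpin family (chromosome 14, 62663667 to 62692243), had the largest spread of all genes at 1 or more UMIs per thinned cell (excess 4.21 in control and 4.96 in Dox). Its median was 0 CPM in both libraries, its 99th percentile was 18011 and 14066 CPM, and single cells reached 33520 in control and 33973 in Dox. The tenth of the cells highest in it (82 control and 81 Dox cells) held 96.7% of its UMIs in control and 97.3% in Dox. In summed CPM it was 784.3 in control and 466.4 in Dox (-0.75, -0.79 to -0.71). That ratio was -0.18 without the tenth of the cells with the most UMIs, -0.52 as a mean of the cells' own CPM and -0.50 after thinning, all short of 1.5-fold. With cells thinned to 2000 UMIs it was seen in 14.4% and 10.4% of main RPE cells and in 7.88% and 10.1% of lymphocytes, and no difference is read from these shares.

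The cells high in Serpine3 differed from the other main RPE cells in a set of further genes, of which a part was shared between the libraries. These genes were named after their values were seen, and the high cells are the upper end of a range, whose lowest cell had 701.5 CPM of Serpine3 in control and 239.3 in Dox beside 678.8 and 237.3 in the highest of the rest. Of 4852 genes compared, 20 were at least 2-fold higher in the high cells in control and 25 in Dox (0.515% of those compared). Of these 17 were shared, which is 85% of the control and 68% of the Dox genes. At least 2-fold lower were 28 genes in control and 27 in Dox (0.556%), of which 17 were shared (60.7% and 63.0%). No gene was at least 2-fold higher in one library and at least 2-fold lower in the other, although some had ratios of opposite sign, such as Ier2 (0.38 in control and -1.21 in Dox). The libraries share no cells, although all these cells were chosen on Serpine3 in the same way.

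Nog (noggin), which binds BMPs, had 234.7 CPM in the high cells and 59.0 in the rest in control, and 234.0 and 69.5 in Dox. Wfikkn2, which binds the related growth factors GDF8 and GDF11, had 547.2 and 103.0 CPM in control and 519.5 and 89.4 in Dox. Id1, an inhibitor of helix-loop-helix factors and a classical BMP target, had 20.7 and 69.4 CPM in control and 20.3 and 88.3 in Dox, and Id3 had 239.1 and 505.9 CPM and 146.9 and 487.9. Both were at least 2-fold lower in the high cells of each library. Bmp6, a BMP ligand, had log2 ratios of -1.65 in control and -0.97 in Dox, and Id2 of -0.96 and -1.30, each past 2-fold in 1 library. Id4 was under 10 CPM in each group of cells.

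Other shared genes came from several families. Upk3b, a uroplakin of epithelial membranes, had 109.2 CPM in the high cells and 14.8 in the rest in control (log2 2.88) and 118.9 and 10.5 in Dox (3.50). It passed the floor of 20 CPM only through the high cells, and is the 1 shared higher gene of which this is true, so that its place among them follows in part from the floor. The serotonin receptor Htr3a had 199.5 and 34.8 CPM in control and 167.9 and 31.4 in Dox, and Aplp1, of the amyloid precursor family, 289.3 and 85.7 and 281.1 and 70.6. The claudins Cldn10 and Cldn2, of tight junctions, were lower in the high cells, with log2 ratios of -2.14 and -1.83 in control and -1.72 and -1.49 in Dox. Like most of the shared lower genes, both were under 20 CPM in the high cells of each library. They passed the floor through the rest, so that their place among the lower genes follows in part from the floor. Of the RPE markers, Ttr (0.03 and 0.04), Rpe65 (-0.11 and -0.04) and Rgr (-0.13 and 0.00) were close to equal. Rd3l was at 0.31 and 0.29, Mt3 at 0.24 and 0.26, and Rdh5 at -0.28 and -0.30.

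**Figure D5:**
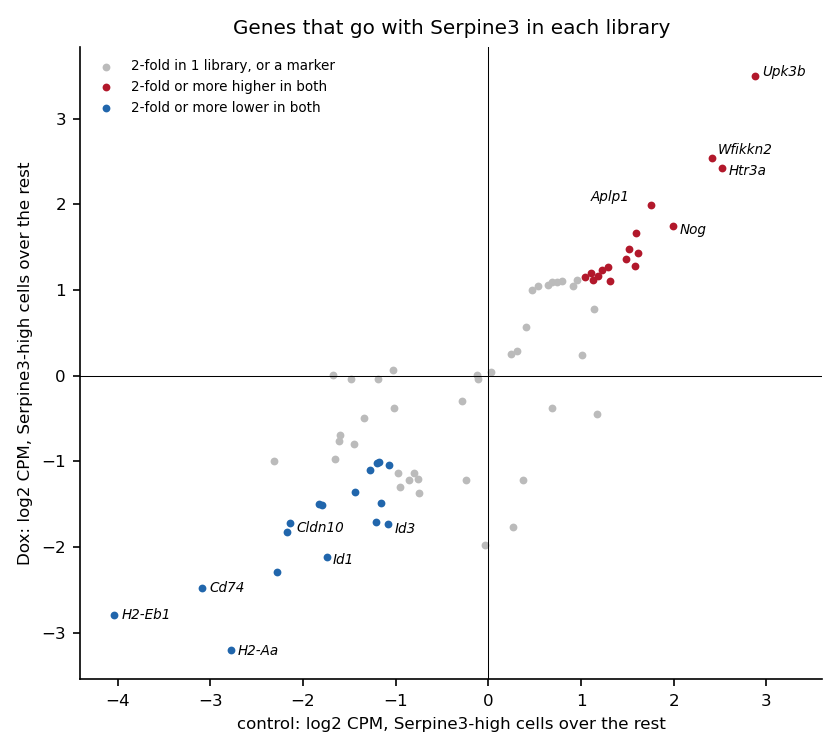
Log2 ratio of CPM in the tenth of main RPE cells highest in Serpine3 over the rest, in control (x axis) and in Dox (y axis), for genes at least 2-fold apart in either library and for the RPE markers; red and blue points are 2-fold apart in both. The 17 red and 17 blue points lie along the diagonal, with Upk3b, Wfikkn2, Htr3a and Nog high and Id1 and Id3 low in both libraries.

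Macrophage genes were lower in the high cells too, with Cd74 at 13.8 CPM against 117.3 in control and 10.8 against 60.3 in Dox. Per cell, the macrophage list had medians of 43.1 CPM in the high cells and 48.7 in the rest in control and 0 in both in Dox, and the melanocyte list 589.3 and 433.9 in control and 289.6 and 222.8 in Dox. The high cells were shallower, with a median of 17642 UMIs against 20528 in control and 19892 against 23235 in Dox, and the part of depth in these differences was not tested.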

How the data were processed

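Single-cell libraries of the RPE layer of control and Dox mice were used, 1 per group. Alignment to mm10 and counting were done by the authors in Cell Ranger 4.0.0, the version in the header of the deposited data. The paper also names another version. What the authors deposited are raw UMI counts by gene and cell, with 20381 cells and 117731270 UMIs in control and 15649 cells and 103997248 UMIs in Dox. Barcodes with over 500 UMIs, 200 to 6000 genes and a mitochondrial share under 0.20 were kept (20189 and 15438), and the limits given above were then applied. UMIs were summed over the cells of a group and expressed as CPM, with exact Poisson intervals. Shares have Clopper-Pearson and ratios exact conditional binomial intervals, all at 95%. With 1 library per condition no test was made. No doublet caller was run, and leaving out the deepest cells and those high in markers of other cell types stands in for one.

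The cells, the 31 gene lists and the alternatives were chosen with earlier results of these data known, and 1 list holds genes that the study itself named from these libraries. Genes named in the text are the markers, the genes of the limits, the most abundant genes and those highest over other cells, the 10 largest differences in each direction, the 4 most abundant and 2 most different members of each list, the genes the study named and those with the largest spread. Aplp1, Best1, Cldn19, Cldn2, Crip1, Gbp7, Bmp6, Htr3a, Id1, Id2, Id3, Id4, Ier2, Ifi35, Irf1, Irf7, Irf9, Kcnj13, Lrat, Mertk, Mfge8, Nog, Ptgds, Rlbp1, Slc2a1, Trf, Tyrp1, Upk3b, Usp18, Wfikkn2 and Zfp36 fall outside this rule and were named after their values were seen. Promoters came from RefSeq (GRCm38.p6). Gene positions came from GENCODE vM21, to which 32235 of 32285 gene IDs matched. The deposited files state no annotation version. Some genes are not reported here. Antisense and overlapping genes were not separated further. The steps were tested on simulated data. Python 3.11.15, numpy 2.4.6, scipy 1.17.1, pandas 2.3.3, matplotlib 3.10.9 and edgeR 4.0.16 (R 4.3.3, for TMM factors only) were used.

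The alternatives were other limits on the mitochondrial share (0.1), Rpe65 (2000 CPM, or 3 UMIs), Serpina3n (300 CPM), Dcn (200 CPM) and a stricter one on Malat1, a complexity above 0.8, the omission of the deepest 10% of cells or of cells high in other-cell markers, the mean of the cells' own CPM, CPM without mitochondrial genes, centring on the median ratio, TMM, thinning to 5000 UMIs, a floor of 50 CPM, no floor with at least 50 UMIs, and 2-fold. Cells with no Serpina3n UMI, and the omission of the cells highest in Serpine3, were added after seeing the data.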

Additional observations from a re-analysis of the deposited data

Results flagged for a closer look

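In 2 genes the main RPE cells and the Rpe65 cells past the Serpina3n limit had Dox over control ratios in opposite directions, each by 1.5-fold or more and, past the limit, with the whole counting interval beyond 1.5-fold. For Serpine3 the log2 ratio was -0.75 in the main RPE cells and 3.09 in the cells past the limit. Atf3, a stress-induced transcription factor, had -0.82 and 1.96. In the main RPE cells both fell short of 1.5-fold under some alternatives, with Atf3 at -0.46 without cells high in other-cell markers and Serpine3 at -0.18 without the deepest cells. Myl9 (-1.37 and 2.01) and Crip1 (-1.07 and 1.21) also differed in direction, from only 2 and 4 control UMIs past the limit. With 1 library per condition the difference between the groups of cells was not tested. The control group past the limit held only 13 cells with 386962 UMIs. The counting intervals cover no spread between cells. Among the main RPE cells, the 82 control and 81 Dox cells highest in Serpine3 held 96.7% and 97.3% of its UMIs. How far the ratio of 3.09 depends on single high cells past the limit was not tested, so its interval may be too narrow.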

How the results depend on the processing

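No paired analysis was possible because each condition had 1 library. The cells that met the limits stayed within 1.5 times of 823 and 814 under each alternative except in Dox with no Serpina3n UMI (457). The 14 higher genes became 3 at a floor of 50 CPM, 4 at 2-fold and 109 with no floor, and the 34 lower genes 13, 13 and 418. The lower genes were also 20 at Dcn under 200 CPM and 18 without cells high in other-cell markers. The 9 interferon genes became 3 at 50 CPM, 3 at 2-fold and 14 with no floor, where the list's median was 0.69, and were 8 to 10 under the other alternatives. The 2 p53 genes became 0 at Serpina3n under 300 CPM, with no Serpina3n UMI, at 50 CPM and at 2-fold, and 1 without the deepest cells, with the mean of the cells' own CPM and after thinning. The p53 median of 0.11 became -0.064 with no Serpina3n UMI, and Cdkn1a turned to -0.30 there. The 7 immediate early genes became 2 with 3 Rpe65 UMIs, 2 at Dcn under 200 CPM, 4 without cells high in other-cell markers, 4 with the mean of the cells' own CPM and 0 at 2-fold. That list's median was -0.27 with 3 Rpe65 UMIs, -0.33 at Dcn under 200 CPM, -0.36 without the deepest cells, -0.29 without cells high in other-cell markers, -0.34 after thinning and -0.36 at 50 CPM. The causes of these shifts were not tested, except that a higher floor or fold leaves fewer genes by construction. With no floor, genes of few UMIs enter, whose ratios are wide. TMM shifted the ratios by a constant whose size rounds to 0.01 on the log2 scale. Counting limited a tested gene's ratio to a median of 0.13 either way on the log2 scale.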

Other observations

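Depth went with composition among the main RPE cells. The cells of each library were split by UMIs into 4 groups of nearly equal size. From the shallowest to the deepest group, the mitochondrially encoded genes went from 30755 to 18497 CPM in control and from 30211 to 18949 in Dox, and Malat1, a nuclear RNA, from 12384 to 6882 and from 11117 to 5876. The melanocyte list had 1224 CPM in the shallowest and 450.3 in the deepest group in control, and 411.4 and 255.6 in Dox. Visual cycle genes lay between 109694 and 121282 CPM in the control groups and between 113437 and 122869 in the Dox groups. In each of the 4 groups the interferon list was higher in Dox, at 1598 to 1979 CPM against 1008 to 1053 in control.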
